A study of Homo sapiens with 12 samples.

Results

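GD2 is a ganglioside, a sugar-bearing lipid of the cell surface, and the antigen that the therapeutic antibodies used in neuroblastoma bind. The RNAs of 8 enzymes that build it or compete for its precursors were followed here through the RNA-sequencing of an SK-N-DZ neuroblastoma clone: UGCG, B4GALT5, B4GALT6, ST3GAL5, ST8SIA1, ST8SIA5, B4GALNT1 and B3GALT4. They were chosen by name, with earlier results of these data known, as 8 of the 43769 genes in the count table, and each name matched exactly 1 row.

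The pathway starts from ceramide. UGCG adds glucose, B4GALT5 and B4GALT6 add galactose to give lactosylceramide, and ST3GAL5 adds sialic acid to give GM3. ST8SIA1 adds a further sialic acid and makes GD3, and B4GALNT1 then adds N-acetylgalactosamine to GD3, which gives GD2. ST8SIA5 can extend GD3 with yet another sialic acid, and B3GALT4 puts galactose on GD2 to give GD1b, so these last enzymes draw precursor or product away from GD2. Neuroblastoma cells of the adrenergic kind usually carry much GD2.

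The study asked how ARID1A, a subunit of the SWI/SNF chromatin remodelling complex, bears on the response to interferon gamma (IFNγ), the cytokine of activated T cells. SK-N-DZ is an established MYCN-amplified neuroblastoma line, and 1 clone of it with a doxycycline-inducible hairpin against ARID1A gave all 12 libraries. The 4 groups of 3 libraries were untreated control (C, labelled WT), doxycycline for 4 days (D, labelled shARID1A), IFNγ for 24 h (I, labelled WT) and both (DI, labelled shARID1A). Every group carried the hairpin construct, and no group received doxycycline without it, so the drug and the hairpin cannot be told apart. The labels number the replicates 1 to 3 in each group and do not say whether they were separate cultures, so p-values measure the spread between these libraries, which may be technical.

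Library totals ran from 16469832 to 21790869 counts, at which 3 counts equal 0.135 to 0.187 CPM, the count of a gene relative to the TMM-scaled size of its library. ARID1A RNA was 183 ± 16.4 CPM in C and 196 ± 5.71 in I, and with doxycycline 171 ± 22.1 in D and 144 ± 9.69 in DI (SD, n = 3). ARID1A did not pass the test for D vs C (log2 fold change −0.09, adjusted p = 0.788, and 0.509 with the replicate number as a block). For DI vs I (−0.44) it passed with that block (adjusted p = 0.0111) and not without it (adjusted p = 0.115), and the doxycycline comparisons are therefore named here by the drug. By qPCR and Western blot, which are not part of these data, the paper reports a knockdown of ARID1A in SK-N-DZ clones with doxycycline. IRF1, an interferon-induced transcription factor used as the check of the IFNγ libraries, stood 7.58 higher in I than in C on the log2 scale (adjusted p = 2.75e-09, edgeR). All 10 adrenergic neuroblastoma markers passed the expression filter, with summed levels of 4549 to 5927 CPM, while 5 leukocyte markers summed to at most 1.13 CPM and CD3E, a defining gene of T cells, had no count in any library.

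None of the 8 enzymes passed the test for either treatment. Of the 15828 genes tested by edgeR, 2.21% were called for I vs C, 1.72% for DI vs D, 1.23% for D vs C and 0.670% for DI vs I at an adjusted p under 0.05, against 0 of the 8 enzymes in each comparison. With the replicate number as a block in the same model 0 of 8 were called too, where 6.02%, 4.46%, 13.9% and 10.5% of all tested genes were. At an unadjusted p under 0.05 there was 1 enzyme for I vs C and 0 for the other comparisons. It was B3GALT4 (higher), a description only, because it entered the test mainly through the IFNγ libraries. Of all tested genes, 8% were at that level for I vs C, 6.24% for DI vs D, 14.2% for D vs C and 12.2% for DI vs I. The block gave 1, 1, 4 and 2 enzymes at that level, beside 18.1%, 14.4%, 29.8% and 27% of all tested genes. DESeq2, which gave B3GALT4 no adjusted p for D vs C, also called none of the enzymes, beside 2.93%, 2.30%, 4.56% and 2.99% of the genes it adjusted, with 1 enzyme at an unadjusted p under 0.05 for I vs C and 0 elsewhere. Whether IFNγ acted differently with and without doxycycline was tested by the interaction (DI vs D against I vs C), for which edgeR called 0 of 8 enzymes and 0% of all tested genes, with 0 of 8 at an unadjusted p under 0.05.

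The precision differed between members. For the 6 enzymes above 5 CPM on average, the 95% intervals of the fold change lay within 0.635 and 1.76 for I vs C and within 0.394 and 1.43 for D vs C. For ST8SIA5 and B3GALT4, both near the expression filter, they were wider. That of ST8SIA5 ran from 0.148 to 8.70 for I vs C and from 0.0692 to 4.57 for D vs C, which leaves a several-fold difference open to both sides. That of B3GALT4 ran from 1.04 to 6.34 for I vs C and from 0.268 to 1.77 for D vs C. Since B3GALT4 entered the test mainly through the IFNγ libraries, its I vs C interval is a description. With the block, the log2 interval of ST8SIA5 for I vs C narrowed from −2.76 to 3.12 to −1.02 to 1.26, while that of B3GALT4 ran from 0.06 to 2.64. The plot of fold changes shows this contrast between narrow and wide intervals.

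**Figure D1:**
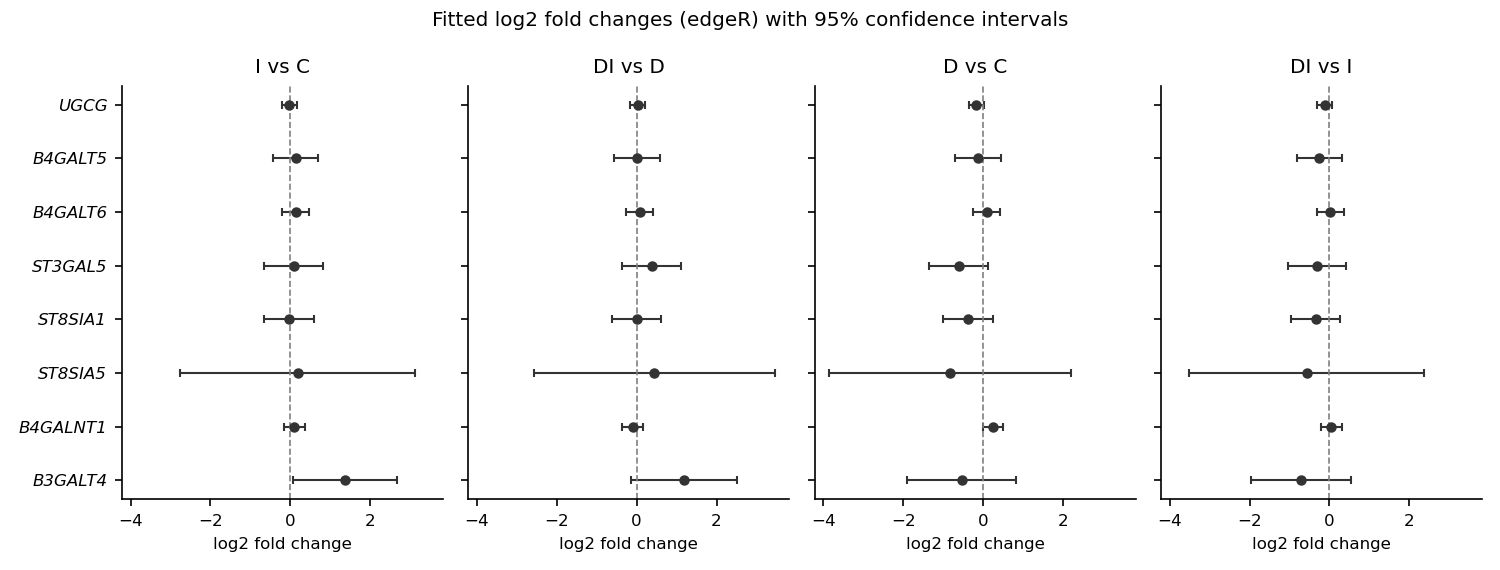
Fitted log2 fold change of each enzyme (point) with its 95% confidence interval (bar) in 4 comparisons of 3 against 3 libraries, from the edgeR model of all 12 libraries. Every interval includes 0 except that of B3GALT4 in I vs C, which runs from 0.06 to 2.67, and those of ST8SIA5 are the widest. B3GALT4 entered the test mainly through the IFNγ libraries, so its interval is a description.

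Per kilobase of annotated exon, B4GALT5 stood highest in C, with 43.0 ± 6.85 CPM per kb (SD, n = 3). UGCG followed at 14.5 ± 1.40, B4GALNT1 at 6.97 ± 0.985, ST8SIA1 at 3.41 ± 1.15, B4GALT6 at 2.54 ± 0.553, ST3GAL5 at 0.787 ± 0.300, B3GALT4 at 0.206 ± 0.139 and ST8SIA5 at 0.0796 ± 0.100 CPM per kb. ST8SIA1 and B4GALT6 overlapped in C (2.41 to 4.66 against 2.18 to 3.17 CPM per kb) and changed places in D and DI, and B3GALT4 and ST8SIA5 overlapped as well. The other neighbours did not overlap in C. Lengths came from all annotated exons of a gene. With the length of the longest coding transcript in their place, B4GALNT1 (18.4 ± 2.60 CPM per kb) stood above UGCG (16.7 ± 1.61), with overlapping ranges, so the order of these genes rests on the length used.

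**Figure D2:**
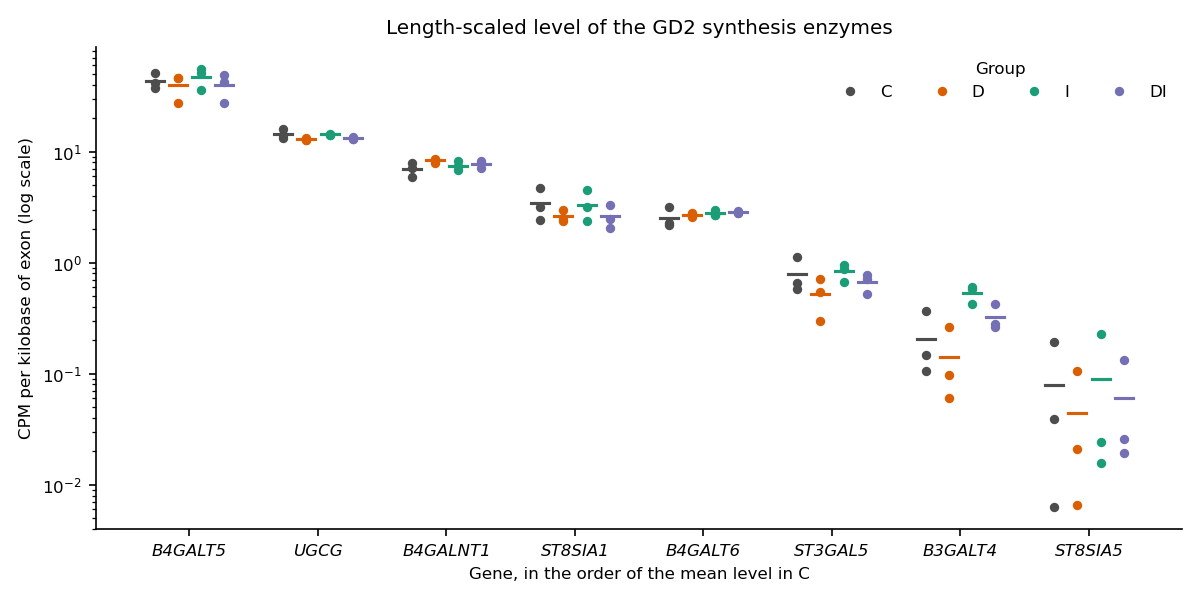
Level per kilobase of exon on a log axis for each enzyme, with 1 point per library and a short line at the mean of each group (n = 3). B4GALT5 is highest and ST8SIA5 lowest by mean in every group, and the points of ST8SIA1 and B4GALT6 overlap.

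UGCG, glucosylceramide synthase, is encoded on chromosome 9 (111896766 to 111935369, plus strand, GRCh38). It makes the first committed step, from which all gangliosides of this pathway descend. Its libraries 1, 2 and 3 held 64.8, 61.7 and 74.1 CPM in C and 65.5, 65.0 and 67.0 in I, and with doxycycline 59.1, 58.3 and 61.3 in D and 60.2, 62.0 and 59.6 in DI. Every D library lay below every C library and every DI library below every I library, while C and I overlapped. Among all tested genes, 19.2% did not overlap between D and C and 16.6% between DI and I. The fitted log2 fold changes were small, −0.17 for D vs C (SE 0.087, adjusted p = 0.428) and −0.12 for DI vs I (SE 0.087, adjusted p = 0.666). UGCG was the steadiest of the 8, with a highest library 1.27 times the lowest.

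B4GALT5 and B4GALT6 are both lactosylceramide synthases. B4GALT5 lies on chromosome 20 (49632945 to 49713878, minus strand) and B4GALT6 on chromosome 18 (31622247 to 31685836, minus strand). B4GALT5 took 89.7% to 95.2% of the counts of the pair in each library. Its libraries 1, 2 and 3 held 196, 175 and 238 CPM in C and 239, 168 and 262 in I, and with doxycycline 215, 128 and 215 in D and 201, 130 and 232 in DI. In all 4 groups library 2 was the lowest, and the groups overlapped. The log2 fold change of B4GALT5 was 0.13 for I vs C (SE 0.26, adjusted p = 0.9998) and −0.25 for DI vs I (SE 0.26, adjusted p = 0.797). B4GALT6 ran from 11.6 to 16.8 CPM over the 12 libraries, and its log2 fold changes lay between 0.03 and 0.14 in the 4 comparisons.

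**Figure D3:**
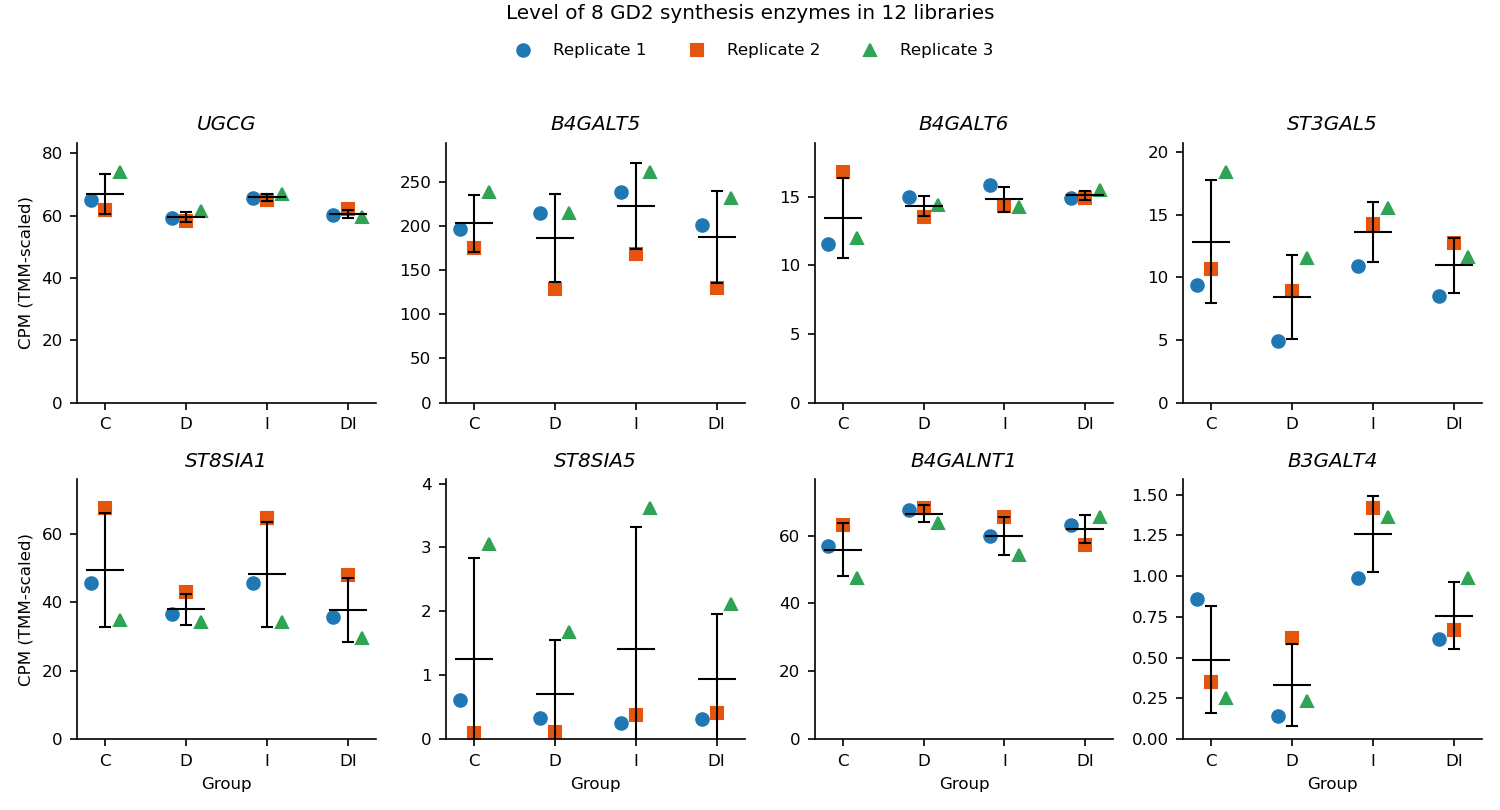
Level of each enzyme in each of the 12 libraries, in CPM scaled by TMM on axes that start at 0, with shapes for the replicate numbers, a horizontal line for the group mean and bars for the SD (n = 3, lower ends under 0 not shown). UGCG is lower in every D library than in every C library, and ST8SIA5 is highest in library 3 of every group.

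A short promoter sequence is shown for B4GALT5 because its letters match those of IRF1, the gene used above as the IFNγ control, at the interferon gamma-activated site (the GAS element, TTCNNNGAA, a palindrome and so the same on both strands). RefSeq promoter windows (GRCh38.p14, from 250 bases before to 50 after a start) were at hand for 4 of the 8 enzymes: UGCG, B4GALT5, ST3GAL5 and ST8SIA1. Each line below gives 49 bases of the minus strand, with the match in capitals. The match begins 227 bases before the B4GALT5 start and 124 before that of IRF1.
B4GALT5 (chr20:49714077-49714125): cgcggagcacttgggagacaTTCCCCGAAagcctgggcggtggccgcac
IRF1 (chr5:132490869-132490917): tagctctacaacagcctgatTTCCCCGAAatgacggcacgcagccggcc
Both hold the same 9 letters, and between I and C the RNA of B4GALT5 differed by 0.13 and that of IRF1 by 7.58 on the log2 scale. GAS letters occurred in 7.66% of the 35116 promoter windows, and of the 4 enzymes, with 8 windows between them, only B4GALT5 held them. The ISRE core (GAAA, any 2 bases, GAAA, read on both strands), found in 3.57% of windows, and the E-box that MYC proteins bind (CACGTG, the same on both strands), found in 7.26%, had no match in the windows of these 4 enzymes.

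ST3GAL5, GM3 synthase, places the first sialic acid (chromosome 2, 85837120 to 85905199, minus strand). Its libraries 1, 2 and 3 held 9.40, 10.7 and 18.4 CPM in C and 10.9, 14.3 and 15.6 in I, and with doxycycline 4.91, 8.90 and 11.5 in D and 8.52, 12.7 and 11.6 in DI. At each replicate number D was below C and DI below I, yet the ranges of the groups overlapped. Among all tested genes, 44.8% kept a single direction at all 3 numbers for D vs C and 45.8% for DI vs I. The log2 fold change was −0.61 for D vs C (SE 0.34, adjusted p = 0.459) and −0.31 for DI vs I (SE 0.33, adjusted p = 0.802). With the replicate number as a block, the D vs C value was −0.62 (95% interval −1.04 to −0.21), and its adjusted p of 0.0502 was the lowest that any of the 8 reached in a comparison of groups.

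ST8SIA1, GD3 synthase, makes the direct precursor of GD2 (chromosome 12, 22063773 to 22437041, minus strand). Its libraries 1, 2 and 3 held 45.6, 67.5 and 34.9 CPM in C and 45.6, 64.6 and 34.3 in I, and with doxycycline 36.4, 43.0 and 34.3 in D and 35.8, 48.0 and 29.7 in DI. The order of the libraries was the same in all 4 groups, with 2 highest and 3 lowest, and C and I were close to each other at every number. The doxycycline libraries were lower than their same-numbered partners in all 6 pairs, by 1.61% to 36.3%. A single direction at all 3 numbers was kept by 44.8% of tested genes for D vs C and 45.8% for DI vs I. The share that kept it in both comparisons is not given here. The log2 fold change was −0.38 for D vs C (SE 0.28, adjusted p = 0.605) and −0.35 for DI vs I (SE 0.28, adjusted p = 0.710). The block gave adjusted p-values of 0.0704 and 0.0817, which did not pass. For I vs C the log2 fold change was −0.04, with a 95% interval of −0.66 to 0.58.

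B4GALNT1, GM2/GD2 synthase, makes GD2 itself (chromosome 12, 57623410 to 57633355, minus strand). Its libraries 1, 2 and 3 held 56.8, 63.2 and 47.5 CPM in C and 59.8, 65.5 and 54.3 in I, and with doxycycline 67.6, 68.1 and 63.7 in D and 63.0, 57.3 and 65.5 in DI. All D libraries lay above all C libraries, the nearest being 63.7 in D and 63.2 in C. Between D and C, 19.2% of tested genes likewise did not overlap. The DI libraries overlapped both D and I. The log2 fold change was 0.25 for D vs C (SE 0.12, adjusted p = 0.370), 0.05 for DI vs I (SE 0.12, adjusted p = 0.934) and 0.10 for I vs C (SE 0.12, adjusted p = 0.9998). Its exons share 2136 bases with those of a gene on the other strand, SLC26A10, listed as SLC26A10P in the count table, which had 4.80 ± 1.45 CPM in C and 6.80 ± 2.51 in D (SD, n = 3). Whether the counts used strand is not given in the sources used here, so reads of the pair may be mixed.

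ST8SIA5, which extends GD3 to a trisialo lipid, was close to the limit of detection (chromosome 18, 46667821 to 46759257, minus strand). Its counts in libraries 1, 2 and 3 were 10, 2 and 49 in C and 5, 7 and 69 in I, and with doxycycline 7, 2 and 29 in D and 6, 8 and 47 in DI. Library 3 held most of the counts in every group. Only 5 of the 12 libraries reached the filter's level of 0.519 CPM, which at least 3 must reach, and 4 of those 5 were the libraries numbered 3, so the gene entered the test mainly through them. No comparison of groups came near the threshold. The lowest adjusted p was 0.860 in edgeR without the block and 0.407 under any alternative, both for D vs C.

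B3GALT4, which converts GD2 to GD1b, was also low (chromosome 6, 33277132 to 33284832, plus strand, in the extended class II region of the MHC). Its libraries 1, 2 and 3 held 0.861, 0.348 and 0.249 CPM in C and 0.990, 1.42 and 1.36 in I, and with doxycycline 0.143, 0.621 and 0.232 in D and 0.616, 0.667 and 0.991 in DI, from 3 to 26 counts. The filter level was reached in 8 of the 12 libraries, all 6 IFNγ libraries among them. Of the 6 libraries without IFNγ only 2 reached it, so B3GALT4 was tested through the groups where it is high, and its values are given as a description. All I libraries lay above all C libraries, where 15.1% of tested genes likewise did not overlap, and D and DI overlapped narrowly. The log2 fold change was 1.36 for I vs C (SE 0.59, unadjusted p = 0.0414, adjusted p = 0.569) and 1.18 for DI vs D (SE 0.60, adjusted p = 0.941), and neither passed. The lowest adjusted p under any alternative was 0.0950 for I vs C and 0.227 for DI vs D.

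Counted over the 8, the share that kept 1 direction at all 3 replicate numbers lay on either side of that of all tested genes. For I vs C, 3 of 8 enzymes moved the same way at all 3 numbers, where 47.1% of tested genes did. For DI vs D it was 2 of 8 against 42.1%, for D vs C 4 of 8 against 44.8%, and for DI vs I 5 of 8 against 45.8%. By ranges, 1 of the 8 did not overlap for I vs C (15.1% of tested genes), 0 for DI vs D (9.55%), 2 for D vs C (19.2%) and 1 for DI vs I (16.6%). The median log2 fold change of the 8 was −0.27 for D vs C and −0.28 for DI vs I, beside medians of −0.0012 and −0.0068 over all tested genes. Both medians include ST8SIA5 (−0.83 and −0.57) and B3GALT4 (−0.54 and −0.72), which lay near the expression filter. The 6 enzymes above 5 CPM ran from −0.61 to 0.25 for D vs C and from −0.35 to 0.05 for DI vs I. For the response to IFNγ, the medians of the 8 were 0.12 (I vs C) and 0.05 (DI vs D), beside −0.0081 and −0.012. D vs C and DI vs I share no library, but their same-numbered libraries vary together, so they are not independent. Each also shares libraries with both IFNγ comparisons.

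Many of all tested genes differed between replicate numbers, and a similar share of these enzymes did. In a model with terms for group and replicate number, which was added after the data were seen, 4 of 8 enzymes passed at an adjusted p under 0.05. Of all tested genes 44.0% (6958) did, so the share of the 8 was close to the background. The 4 include ST8SIA5, which is a description only, for the reason given below. The p-values are those of the joint test over the 3 numbers. B4GALT5 was lowest in library 2 of every group, with a joint adjusted p of 0.000464 (edgeR) and a log2 difference of 0.66 between numbers 3 and 2 (SE 0.085). ST8SIA1 ran the other way, with a joint adjusted p of 0.000608 and a difference of −0.72 between numbers 3 and 2 (SE 0.096). ST3GAL5 was lowest in library 1 of every group, 0.79 below number 3 (SE 0.16), with a joint adjusted p of 0.00783. The remaining one, ST8SIA5, had 194 counts summed over the libraries numbered 3, against 28 and 19 for numbers 1 and 2. Since it entered the test mainly through the libraries numbered 3, its values are a description, and its call is no support for a difference between numbers. UGCG, B4GALT6, B4GALNT1 and B3GALT4 did not pass, with adjusted p-values of 0.358 to 0.895. In the C and I libraries alone 5 passed, ST8SIA5 again among them and B4GALNT1 (adjusted p = 0.0221) being the addition. In the D and DI libraries alone 3 passed, ST8SIA5 being too low to be tested there. The share of all tested genes that passed in these refits is not given here, so their counts have no background. The labels do not say what the numbers stand for.

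**Figure D4:**
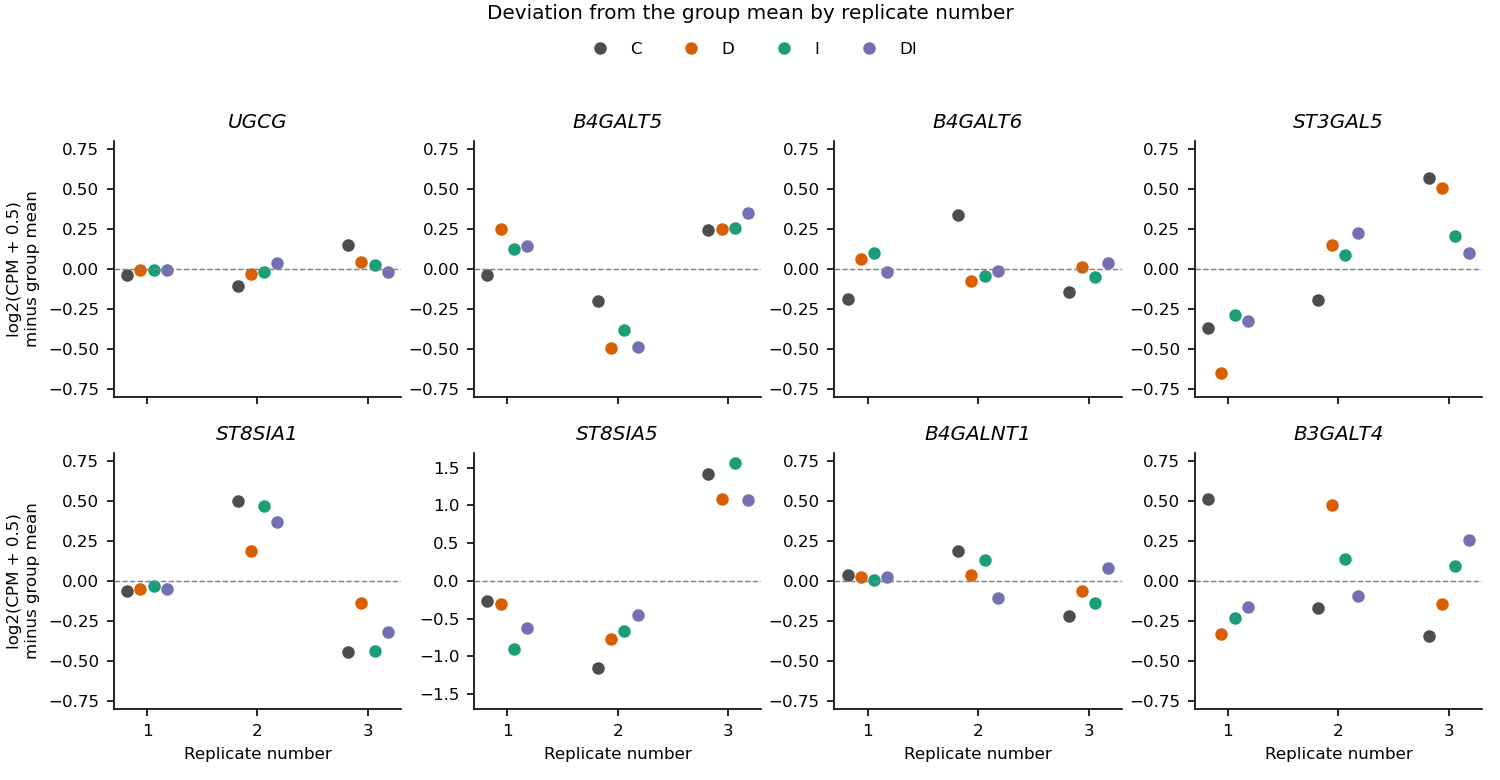
Deviation of each library from its group mean, on the log2(CPM + 0.5) scale, by replicate number for the 8 enzymes, with 1 point per library and colours for the 4 groups. In B4GALT5, ST3GAL5, ST8SIA1 and ST8SIA5 the 4 groups deviate alike, while in B3GALT4 they do not.

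The ratio of B4GALNT1 to ST8SIA1 sets the enzyme that makes GD2 against the enzyme that supplies its precursor, in RNA and within a library, where library scaling cancels. In libraries 1, 2 and 3 it was 1.24, 0.935 and 1.36 in C and 1.31, 1.01 and 1.58 in I, and with doxycycline 1.86, 1.58 and 1.85 in D and 1.76, 1.19 and 2.21 in DI. It was higher with doxycycline at all 6 same-numbered pairs. C and D did not overlap, while I and DI did. How often the ratios of other pairs of genes do the same was not computed. The log2 difference within numbers 1, 2 and 3 was 0.576, 0.760 and 0.447 for D vs C and 0.423, 0.233 and 0.478 for DI vs I. An exact permutation test cannot give a p under 0.1 for 3 against 3 libraries or under 0.25 for 3 pairs (two-sided), so no such test of the ratio can pass in this design. For IFNγ the ranges overlapped in both comparisons. The ratio was higher at all 3 numbers for I vs C (log2 difference 0.0767, 0.117 and 0.219) and at 1 of 3 for DI vs D.

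The summed level of mesenchymal marker genes was lower in the doxycycline groups. Of 10, 8 were tested and TWIST2 had no count in any library, and their summed level was 62.1 to 68.4 CPM in D and 62.8 to 71.5 in DI, against 82.0 to 91.1 in C and 74.6 to 92.4 in I. Schwann or glial markers, 3 of 5 tested, summed to 2.15 to 3.82 CPM in D and 3.23 to 7.84 in DI, against 5.21 to 9.41 in C and 6.28 to 13.0 in I. Neither sum was tested, and neither shows its single members, which are not given here. Among single tested genes, 19.2% did not overlap between D and C and 16.6% between DI and I. The 10 adrenergic markers summed to 5034 to 5735 CPM in C and 4814 to 5428 in D, and to 4986 to 5907 in I and 4549 to 5927 in DI. This sum does not show single members. TH averaged 41.7 ± 36.1 CPM in C and 3.02 ± 3.49 in D, though library 2 was higher in D (7.04) than in C (3.13). DBH averaged 345 ± 89.7 CPM in C and 181 ± 165 in D (SD, n = 3), with library 2 at 442 in C and 371 in D. Neither passed for D vs C without the block. With it DBH passed for D vs C (edgeR, adjusted p = 0.0433) and not for DI vs I (adjusted p = 0.0593). The other adrenergic markers are not given singly, so TH and DBH do not stand for the list. Endothelial markers summed to 0.116 to 2.95 CPM, with PECAM1 and TEK at no count. The part of these levels in the differences of the 8 enzymes was not tested, and in bulk RNA fewer cells of a kind and less RNA per cell cannot be told apart.

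Around the 8 enzymes stand 67 further genes of glycosphingolipid metabolism, of which 57 were tested. They supply ceramide (14 genes, 11 tested), carry lipids to the Golgi (3, all tested), make nucleotide sugars and sialic acid (8, all tested), transfer other sugars (22, 17 tested), acetylate gangliosides (2, both tested) or break the lipids down (18, 16 tested). For D vs C, 1 gene was called: ST8SIA3, a sialyltransferase of the family of ST8SIA1, which rose from 27.5 ± 0.566 CPM in C to 38.5 ± 1.95 in D (SD, n = 3, log2 fold change 0.49, SE 0.089, adjusted p = 0.0283, edgeR). This call was lost when any 1 of the 6 libraries of C and D was left out (adjusted p 0.0608 to 0.137), although the log2 fold change stayed between 0.45 and 0.52. For DI vs I, ST8SIA3 was 0.25 higher (adjusted p = 0.268). No gene of these lists was called for I vs C, DI vs D, DI vs I or the interaction by edgeR, with 3, 2, 4 and 0 of 57 at an unadjusted p under 0.05, while DESeq2 called 1 for I vs C (SMPD1) and 1 for DI vs I (SPTSSA).

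With the replicate number as a block, 6 of the 57 were called for D vs C (13.9% of all tested genes), 3 for DI vs I (10.5%), 2 for I vs C (6.02%) and 0 for DI vs D (4.46%). With a block of the numbers within each doxycycline arm, 9 were called for I vs C (14.6% of all tested genes) and 4 for DI vs D (11.2%). The genes that passed for both doxycycline comparisons all supply ceramide, and the share of all tested genes that passed both is not given here. DEGS1, which forms the double bond of ceramide, fell by 0.53 on the log2 scale for D vs C (adjusted p = 0.00235) and by 0.44 for DI vs I (adjusted p = 0.00758) in that model. SPTSSA, a small subunit of serine palmitoyltransferase, fell by 0.39 (adjusted p = 0.0162) and 0.44 (adjusted p = 0.0116). CERS4, a ceramide synthase, fell by 0.47 (adjusted p = 0.0207) and 0.50 (adjusted p = 0.0207). Without the block, the adjusted p-values of these 3 genes ran from 0.150 to 0.698. Over the 11 tested genes of ceramide supply, the median log2 fold change without the block was −0.13 for D vs C, with 9 lower and 2 higher, and −0.14 for DI vs I, with 8 lower and 3 higher. Medians over all tested genes were −0.0012 and −0.0068. Of all 57 pathway genes, 38 were lower and 19 higher for D vs C, and 35 lower and 22 higher for DI vs I.

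Among the other genes called under the block for D vs C were ST8SIA3 and UGT8, which makes galactosylceramide (fell by 1.26, adjusted p = 0.0468). Without the block the log2 fold change of UGT8 was −0.90 (SE 1.67, adjusted p = 0.880). Its libraries 1, 2 and 3 held 9.65, 0.497 and 21.7 CPM in C and 2.48, 0.103 and 14.5 in D. For I vs C the genes called under the block were KDSR, an early enzyme of sphingolipid synthesis (0.48 higher, adjusted p = 0.0394), and SMPD1, acid sphingomyelinase, which releases ceramide (0.70 higher, adjusted p = 0.0175). SMPD1 rose from 15.8 ± 2.70 CPM in C to 25.7 ± 4.92 in I (SD, n = 3), and without the block its adjusted p was 0.0712.

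**Figure D5:**
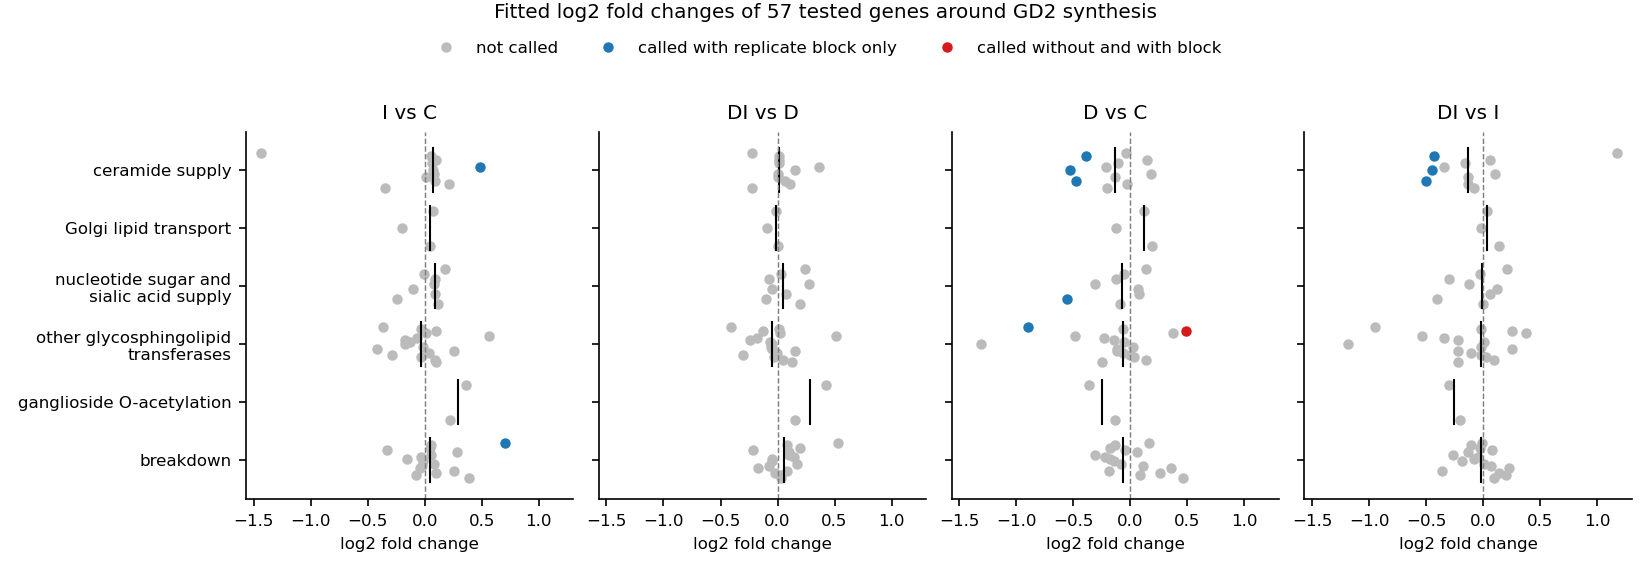
Fitted log2 fold change (edgeR without the block) of each of 57 tested genes around GD2 synthesis, in 6 lists and 4 comparisons, with a vertical line at the median of each list. ST8SIA3 in D vs C is the 1 gene called without the block, and the genes called with the block for D vs C and DI vs I lie below 0, apart from ST8SIA3 itself.

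Over the 12 libraries, the genes whose log2(CPM + 0.5) was most like that of B4GALNT1 were ZNF71 (Pearson's r = 0.935), ZSCAN25 (0.925) and ATG2B (0.924). Those most like ST8SIA1 were FRZB (0.952), CCER2 (0.948) and GALNT16 (0.939). Between members, B4GALNT1 ran opposite to UGCG (r = −0.891), while B4GALNT1 and ST8SIA1, consecutive enzymes of the pathway, had r = 0.17. These coefficients describe 12 libraries that share groups and replicate numbers, and no test was made of them.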

How the data were processed

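The RNA-sequencing libraries (paired-end, Illumina) were counted by the authors, who deposited raw counts per gene. The aligner, counting tool, genome build and strand setting are not given in the sources used here, and the submitters' processing notes name DESeq2. All 43769 gene identifiers occur in GENCODE 29 (GRCh38), from which positions and lengths were taken. The authors' deposited tables of fold changes and p-values were not used, nor were 18 per-library columns whose names the labels do not explain. Groups came from the sample titles.

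Counts were scaled by TMM, filtered with filterByExpr (minimum count 10; 17165 genes had no count) and tested with edgeR 4.0.16 (limma 3.58.1, R 4.3.3) in 1 quasi-likelihood model of 4 groups, with two-sided tests and Benjamini-Hochberg adjustment over 15828 genes at 0.05. DESeq2 1.42.0, other scalings, no filter, fewer libraries, a replicate block and leaving out each library were alternatives. A gene of the pathway lists was named if called in at least 1 comparison, beside all 8 enzymes and, for B4GALNT1 and ST8SIA1, the 3 genes most alike. Of the pathway genes called with the block, 1 is not reported here. Members and lists were chosen with earlier results of these data known. Tables were made in Python 3.11.15, and the model was tested on simulated counts.

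Replicates of a group differed by more than counting noise (chi-square per gene 18.6 to 82.2). The replicate numbers pair the libraries: after removal of group means, same-numbered libraries correlated at 0.588 to 0.839 within a doxycycline arm (6 pairs) and 0.321 to 0.637 across arms (12 pairs), and others at −0.663 to 0.183 (36 pairs). The main design had no block. Blocked values stand beside the calls they change.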

Additional observations from a re-analysis of the deposited data

How the results depend on the processing

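The count of 0 called enzymes of 8 held in all 5 comparisons under every alternative, and the replicate block changed no call among the 8. Of 253 refits of their log2 fold changes on full groups, 249 kept their direction and 4, all for DI vs D and all near 0, did not: UGCG (−0.0141) and B4GALT5 (−0.0220) with library size alone, and ST8SIA1 without the filter (0.0066) and with only the 6 libraries compared (0.0099). Leaving out 1 library turned the sign in 46 of 288 refits, over 22 of 40 values, so no direction is claimed for these. The ranges were, for I vs C, UGCG −0.0851 to 0.0567, B4GALT5 −0.0114 to 0.30, ST3GAL5 −0.11 to 0.44, ST8SIA1 −0.31 to 0.25, ST8SIA5 −1.98 to 2.00 and B4GALNT1 −0.0028 to 0.19. For DI vs D they were B4GALT5 −0.19 to 0.22, ST8SIA1 −0.21 to 0.14 and ST8SIA5 −0.95 to 2.08, for D vs C B4GALT5 −0.25 to 0.0788, B4GALT6 −0.0237 to 0.27, ST8SIA5 −2.46 to 0.99 and B3GALT4 −1.35 to 0.13, and for DI vs I ST8SIA5 −1.96 to 1.59 and B4GALNT1 −0.0023 to 0.12. For the interaction they were UGCG −0.0324 to 0.12, B4GALT5 −0.33 to 0.0862, B4GALT6 −0.24 to 0.0602, ST3GAL5 −0.0592 to 0.58, ST8SIA1 −0.24 to 0.30, ST8SIA5 −1.56 to 2.44 and B3GALT4 −0.84 to 0.63.

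The counts of other pathway genes moved. For I vs C, 0 became 2 with the replicate block, 9 with the replicate block within each doxycycline arm and 1 with DESeq2. For DI vs D it became 4 with the block within arms, and for DI vs I 3 with the block and 1 with DESeq2. For D vs C, 1 became 6 with the block and 0 without the filter, with only the 6 libraries compared, or without any 1 library (0 to 0). The cause was not tested. Over all genes the calls for I vs C, DI vs D, D vs C and DI vs I were 350, 273, 194 and 106, and 953, 706, 2200 and 1658 with the block. DESeq2 called 530, 405, 644 and 452, and the block within arms 2318 and 1770 for IFNγ. For D vs C there were 119 without the filter and 16 with the 6 libraries alone, which called 0 for DI vs I. The interaction had 4 calls with the block within arms and 1 with DESeq2.

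B4GALT5, ST3GAL5 and ST8SIA1 differed by replicate number without any 1 library. The counts of ST8SIA5 (2 to 69) and B3GALT4 (3 to 26) per library were low, and what depth alone limits was not tested.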
